A study of Mus musculus with 4 samples.

Results

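The ErbB signalling genes described here are 3 receptors (Egfr, Erbb2 and Erbb3), 5 ligands (Hbegf, Areg, Ereg, Tgfa and Btc) and 2 inhibitors of receptor signalling (Lrig1 and Errfi1). They were chosen by gene symbol, which gave 23 of 45101 probe sets on an Affymetrix 3' expression array and covered 9 of the 10 genes. Areg was not analysed here. The samples were basal cells of the interfollicular epidermis, sorted from mouse tail skin by integrin alpha 6, with CD34-positive cells left out. The SmoM2 group (K14CreER:SmoM2, 2 arrays) expressed SmoM2, an oncogenic, constitutively active form of the Hedgehog transducer Smoothened, and kept Sox9. The Sox9cKO group (K14CreER:SmoM2:Sox9cKO, 2 arrays) expressed SmoM2 as well and carried a conditional deletion of Sox9. K14CreER, a Cre recombinase driven by the keratin 14 promoter of basal keratinocytes and switched on by tamoxifen, was present in all mice. Every mouse received 2.5 mg of tamoxifen on 10 days. Sampling was at 9 weeks (9WPI in the sample titles, read here as weeks after induction). Both groups thus carried the oncogene and the drug, and no group without SmoM2 was compared. The age of the mice and the number of animals behind each array are, for both groups, not given in the sources used here. The p-values set each group difference against the spread between these arrays, with a variance partly pooled over genes. How far that covers the spread between animals is therefore not known.

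ErbB receptors are tyrosine kinases that pair after binding ligands of the EGF family. The ligands are made as membrane proteins and released by metalloproteases, and the paired receptors drive the Ras-MAPK and PI3K cascades. Erbb2 binds no known ligand and Erbb3 has little kinase activity of its own, so both act mainly as partners. Lrig1 is a membrane protein that lowers receptor levels, and it marks stem cells of the upper hair follicle and sebaceous duct in mouse skin. Errfi1 (also called Mig6) is a cytoplasmic inhibitor that binds the active kinase and is itself induced by the pathway. In epidermis, ErbB signalling promotes basal cell proliferation and restrains differentiation.

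The 4 arrays had medians between 5.45 and 5.48 on the log2 scale, and Pearson's r across probe sets was 0.991 within each group and 0.978 to 0.980 between groups (probe sets are not independent replicates). Sox9 was lower in Sox9cKO by 3.89 on the log2 scale (adjusted p = 0.00159) at 1 of its 3 probe sets. Its probe set of highest mean signal differed by -0.75 (adjusted p = 0.143) and the dimmest by -0.41 (adjusted p = 0.298). Neither passed, though the arrays did not overlap at either. The position of the probes relative to the deleted part of Sox9 was not analysed here. Y-linked genes were bright in SmoM2 replicate 2 and Sox9cKO replicate 1 only, so each group held an array with and an array without that signal. Spiked labelling controls had mean log2 signals of 8.85 and 8.13 for SmoM2 and of 9.05 and 7.54 for Sox9cKO, lower in replicate 2 of each group. Actb probes at the 3' end exceeded those at the 5' end by 0.74 and 0.46 in SmoM2 and by 0.75 and 0.52 in Sox9cKO, again less in replicate 2. The basal keratins Krt5 and Krt14 had log2 signals of 13.15 to 13.76 on all arrays, while Cd34, the marker sorted against, had 3.75 to 4.15. Limma called none of the 8 basal markers, but 4 were lower in Sox9cKO at an unadjusted p under 0.05 with arrays not overlapping: Col17a1 (-0.87), Itgb4 (-0.69), the sorting marker Itga6 (-0.45) and Krt14 (-0.41). The median over the basal markers was -0.33.

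Loss of Sox9 went with lower signal of a ligand and an inhibitor of the receptors, and with no called change of the receptors themselves. Of the 9 genes measured, 2 fell and 0 rose at an adjusted p under 0.05 (limma, adjusted over 18193 genes), namely Hbegf and Lrig1. Of all genes, 6.19% were called, 3.53% as lower and 2.66% as higher. Of the 23 probe sets 4 fell and 0 rose, against 4.21% of 34945 probe sets called, 2.51% as lower and 1.69% as higher. An unadjusted p under 0.05 was reached in the upward direction by Erbb2 and Erbb3. By limma p-value they ranked 1751 and 2538 of 18193 genes, so at least 2538 genes were under that threshold. Counts at this threshold, here and in the gene lists, are to be read beside that number. The arrays of the groups did not overlap for 6 of the 9 genes, 3 higher and 3 lower, against 47.9% of all genes (26.0% higher and 21.8% lower). The median log2 change was 0.04 over the 9 genes and 0.02 over all genes. Nothing particular to the family is read from these shares, since it holds few genes. With 2 arrays against 2, an exact two-sided permutation test on 1 gene has a smallest possible p of 0.333, so each call depends on the variance that limma pools over genes. Fewer cells of a type and less RNA per cell cannot be told apart in these bulk samples.

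**Figure D1:**
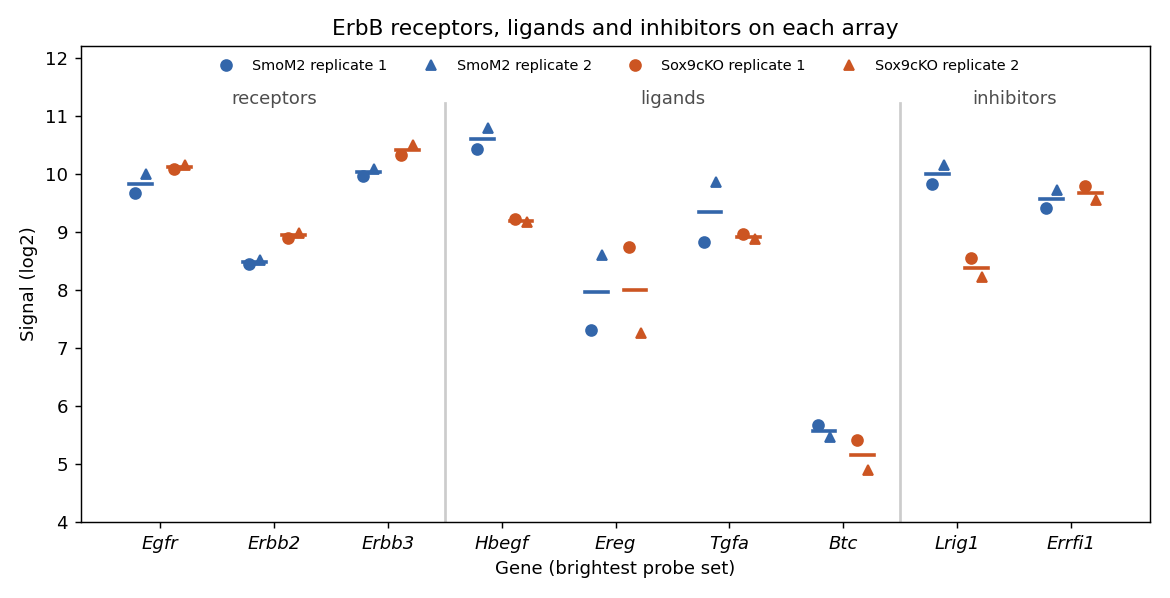
Log2 signal of each measured gene at its brightest probe set on the SmoM2 arrays (blue) and Sox9cKO arrays (orange), with replicate 1 as a circle, replicate 2 as a triangle and the group mean as a line. Hbegf and Lrig1 have both Sox9cKO arrays below both SmoM2 arrays, by at least 1.20 and 1.28, while Ereg is spread more widely within each group than between them.

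The receptors had higher signals in Sox9cKO at their brightest probe sets, by sizes that did not pass the test. Erbb2, the partner receptor without a ligand, had log2 signals of 8.45 and 8.51 in SmoM2 and 8.89 and 8.98 in Sox9cKO (replicate 1 before replicate 2, as throughout). Both Sox9cKO arrays lay above both SmoM2 arrays, and the gap between groups exceeded the gap within either group. The difference was 0.45 (SE 0.13, 95% interval 0.14 to 0.77, adjusted p = 0.114), or 1.37-fold. This gene had a single probe set.

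Erbb3, the receptor with weak kinase activity, had log2 signals of 9.96 and 10.08 in SmoM2 and 10.33 and 10.49 in Sox9cKO. The groups again did not overlap, with a difference of 0.39 (SE 0.14, 95% interval 0.05 to 0.72, adjusted p = 0.203). Its dimmer probe set, at 4.74 to 4.90 on the 4 arrays, overlapped between groups and differed by 0.00 (95% interval -0.34 to 0.34). Erbb3 is also expressed by melanocytes and Schwann cells. The melanocyte markers averaged 6.04 and 5.83 in SmoM2 and 6.03 and 6.34 in Sox9cKO. All 8 measured had a higher mean in Sox9cKO, with a median log2 change of 0.24. Arrays did not overlap for 3 of the 8, while 26.0% of all genes did not overlap in that direction. By limma none of the 8 was called (1 had an unadjusted p under 0.05). Of the 4 measured Schwann cell markers none was called by limma either, and 0 had an unadjusted p under 0.05. Their part in the Erbb3 values was not tested.

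Egfr, a receptor for the ligands of this family, had log2 signals of 9.66 and 10.00 in SmoM2 and 10.09 and 10.14 in Sox9cKO. The higher SmoM2 array came within 0.09 of the lower Sox9cKO array, and the difference of 0.29 (SE 0.16, 95% interval -0.09 to 0.66) had an adjusted p of 0.425. Egfr had 7 probe sets, more than any other member. Their log2 changes ran from -0.06 to 0.29, 5 of them positive, and limma called none in either direction. The dimmest, at 3.52 to 3.77, lay below 4.27, the lower quartile of all signals, and measured little.

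Among the ligands, Hbegf was the one that fell. Hbegf encodes heparin-binding EGF-like growth factor, which binds Egfr and Erbb4 and is induced in keratinocytes at wound margins. Its log2 signals were 10.42 and 10.79 in SmoM2 and 9.22 and 9.17 in Sox9cKO, so the lower SmoM2 array stood 1.20 above the higher Sox9cKO array. The change was -1.41 (SE 0.16, 95% interval -1.79 to -1.03, adjusted p = 0.00319), a 2.66-fold lower signal. Hbegf had a further probe set, at 8.70 and 9.26 in SmoM2 and 7.71 and 7.40 in Sox9cKO. It fell by 1.43 (SE 0.22), with an adjusted p of 0.0153 over the 34945 probe sets, of which 2.51% were called lower. With each array left out in turn the Hbegf change lay between -1.59 and -1.23 and its adjusted p between 0.00977 and 0.0260.

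Ereg (epiregulin, a ligand of Egfr and Erbb4) varied more within groups than any other member. Its log2 signals were 7.31 and 8.61 in SmoM2 and 8.75 and 7.25 in Sox9cKO. The high arrays were SmoM2 replicate 2 and Sox9cKO replicate 1, the same arrays on which Y-linked genes were bright. The Y-linked gene Eif2s3y had log2 signals of 3.62, 9.48, 9.03 and 3.55 on the arrays in the same order. The group difference of Ereg was 0.04 (SE 0.54, 95% interval -1.23 to 1.31, adjusted p = 0.981), an interval that holds a more than 2-fold difference either way. Between the arrays with Y-linked signal Sox9cKO differed from SmoM2 by 0.14, and between those without it by -0.06. Ereg was read by 1 probe set, and the part of the Y-linked difference between animals in its spread was not tested.

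Tgfa (transforming growth factor alpha, a ligand of Egfr made by keratinocytes themselves) had log2 signals of 8.82 and 9.86 in SmoM2 and 8.96 and 8.88 in Sox9cKO. SmoM2 replicate 2 stood alone above the other arrays, which lay within 0.14 of each other. The difference was -0.42 (SE 0.30, 95% interval -1.14 to 0.29, adjusted p = 0.567), and without SmoM2 replicate 2 it was 0.10. The other two probe sets of Tgfa differed by 0.08 and 0.00 and showed no such array, at 6.27 to 6.36 and 5.60 to 5.64.

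Btc (betacellulin, a ligand of Egfr and Erbb4) had log2 signals of 5.67 and 5.46 in SmoM2 and 5.41 and 4.90 in Sox9cKO. The groups did not overlap but came within 0.05 of each other, and the difference of -0.41 (SE 0.20, 95% interval -0.87 to 0.05) did not pass (adjusted p = 0.343). Its dimmer probe set lay below the lower quartile of all signals, at 3.32 to 3.81, with a difference of -0.29. In the RefSeq annotation of GRCm38.p6, Epgn, Ereg, Areg and Btc follow one another in this order on chromosome 5 with no other protein-coding gene between them. The 3 of these neighbours measured here differed by 0.74 (Epgn, adjusted p = 0.0712), 0.04 (Ereg) and -0.41 (Btc).

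**Figure D2:**
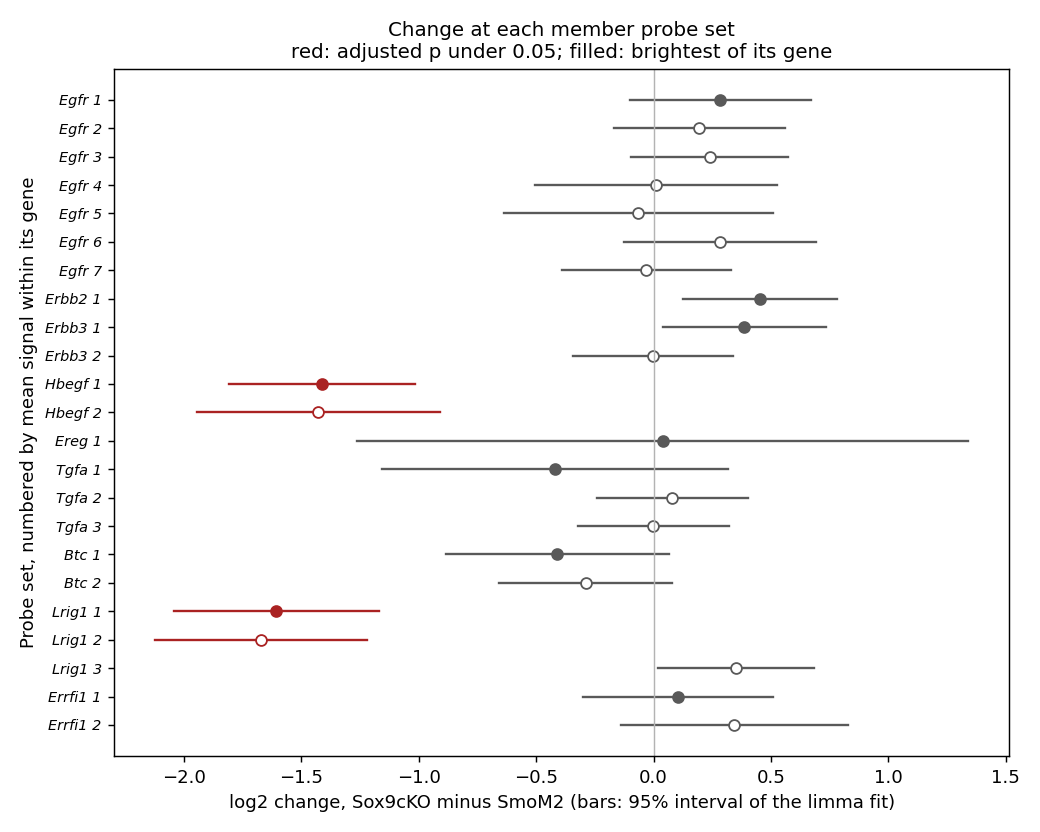
Log2 change (Sox9cKO minus SmoM2) of each of the 23 probe sets with its 95% interval from the limma fit over 34945 probe sets, numbered by mean signal within the gene. The 4 probe sets called at an adjusted p under 0.05 (red) are both of Hbegf and the brighter pair of Lrig1, while the dimmest Lrig1 probe set lies on the other side of 0.

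Lrig1 was the inhibitor that fell, and its brightest probe set gave a larger change than that of any other member. Its log2 signals were 9.83 and 10.15 in SmoM2 and 8.55 and 8.22 in Sox9cKO, so the groups were separated by 1.28 at the closest. The change was -1.61 (SE 0.18, 95% interval -2.03 to -1.19, adjusted p = 0.00282), a 3.05-fold lower signal. A further probe set, at 9.65 and 9.90 in SmoM2 and 8.31 and 7.89 in Sox9cKO, fell by 1.67 (adjusted p = 0.00516 over all probe sets). The remaining probe set was dimmer and went the other way without passing the test, at 5.67 and 5.58 in SmoM2 and 6.02 and 5.92 in Sox9cKO (difference 0.35, adjusted p = 0.289). With the mean of the 3 probe sets the Lrig1 change was -0.98 (adjusted p = 0.0151), smaller than the -1.42 of Hbegf averaged in the same way, and with each array left out the brightest probe set gave -1.77 to -1.44.

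Lrig1 is expressed next to the sebaceous gland, so sebocyte markers were read beside it. Of 6 measured sebocyte markers 2 fell and 0 rose. At an unadjusted p under 0.05 by limma, 5 were lower, all with arrays not overlapping, and the list median was -1.13. The mean log2 signal of the list was 9.06 and 8.24 in SmoM2, against 7.76 and 7.40 in Sox9cKO. Cidea, a lipid droplet gene, fell by 2.29 (adjusted p = 0.00174) and Plin2 by 1.18 (adjusted p = 0.00813). The defining regulator Pparg was dim, at 5.95 and 4.76 against 4.65 and 4.32, a difference of -0.87 that did not pass (adjusted p = 0.253). Scd1, a fatty acid desaturase gene, went the other way without passing, with a difference of 0.28 (adjusted p = 0.453) and arrays not overlapping. Between the groups the sebocyte average and Lrig1 were both lower in Sox9cKO. Within SmoM2 the average was higher in replicate 1 and Lrig1 in replicate 2. Within Sox9cKO both were higher in replicate 1, at 7.76 against 7.40 for the average and 8.55 against 8.22 for Lrig1. Of 6 suprabasal keratinocyte markers 3 rose, and of 5 markers of the inner root sheath of the hair follicle 4 rose. None of either list fell. The part of these cell types in the Lrig1 and Hbegf values was not tested.

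Markers of other cells that can express Hbegf were read beside it. Of 9 Langerhans and myeloid markers 1 rose, the class II gene H2-Aa (from 5.47 and 5.13 to 7.22 and 7.11). At an unadjusted p under 0.05 by limma, 3 of the 9 were higher and 1 was lower. Among them were Cd74 (0.61) and Cd68 (-0.54), each with arrays not overlapping and neither called. Another class II gene, H2-Ab1, stood at 7.66 to 7.97 on the 4 arrays and the myeloid receptor gene Csf1r at 6.53 to 6.79. The Langerhans marker Cd207 had log2 signals of 4.96 and 4.54 in SmoM2 and 5.08 and 5.39 in Sox9cKO, not overlapping but not called (adjusted p = 0.236). Of 6 T cell markers 1 rose, Thy1, and Cd3e stood at 5.37 to 5.89. Of 7 fibroblast markers 1 rose, Dcn, from 8.85 and 8.70 to 12.09 and 12.78, and Col1a1 stood at 4.08 to 4.51. By limma 2 of the 7 were higher at an unadjusted p under 0.05, Dcn and Col1a2 (0.72, arrays overlapping). None of the 5 endothelial markers was called by limma (0 at an unadjusted p under 0.05). These lists had median log2 changes of -0.02 to 0.18.

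Errfi1, the inhibitor induced by the pathway, overlapped between groups. Its log2 signals were 9.41 and 9.72 in SmoM2 and 9.79 and 9.55 in Sox9cKO, a difference of 0.10 (SE 0.17, 95% interval -0.29 to 0.49, adjusted p = 0.829). Its dimmer probe set differed by 0.34 with overlapping arrays (adjusted p = 0.511). The interval of the brighter one holds changes of at most 0.49 in size, and the size of the Lrig1 change lies outside it. A difference between Lrig1 and Errfi1 was not tested.

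The promoters of these inhibitors are shown because one gene fell and the other was not called on the same arrays. The RefSeq table (GRCm38.p6) held a promoter for 7 of the 10 genes. Hbegf, the other gene that fell, was not among them. The 250 bases before the start of Lrig1 (chr6:94700146-94700395, minus strand) and before the upstream start of Errfi1 (chr4:150853546-150853795, plus strand) are given 5′ to 3′, with motif matches in capitals.
Lrig1: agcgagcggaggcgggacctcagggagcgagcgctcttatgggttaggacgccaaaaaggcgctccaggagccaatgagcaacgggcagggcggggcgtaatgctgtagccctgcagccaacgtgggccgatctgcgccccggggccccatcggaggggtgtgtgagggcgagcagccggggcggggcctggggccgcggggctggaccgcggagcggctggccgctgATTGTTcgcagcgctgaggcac
Errfi1: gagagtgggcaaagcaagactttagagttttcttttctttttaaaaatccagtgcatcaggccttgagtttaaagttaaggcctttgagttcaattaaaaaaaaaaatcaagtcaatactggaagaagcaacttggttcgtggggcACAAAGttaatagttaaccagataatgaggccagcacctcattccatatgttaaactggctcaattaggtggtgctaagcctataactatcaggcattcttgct
These windows were searched on both strands for AACAAT, a core word of SOX factors. They were also searched for the related word ACAAAG and for a further one, ACAATG, which can overlap AACAAT. The word of AP-1, TGANTCA, was searched in the same way. The Lrig1 window held AACAAT on the opposite strand, from 22 to 17 bases before the start, and the Errfi1 window held ACAAAG from 104 to 99 bases before it. Of the 8 promoters of the family searched, 1 held AACAAT and 1 held ACAAAG. Of 32851 promoters of the same length, 9.42% held AACAAT and 16.5% held ACAAAG. The shares were 10.7% for ACAATG and 6.75% for TGANTCA, which no promoter of the family in the table held. The windows also differed in base composition, with 71.6% G and C for Lrig1 and 38% for this Errfi1 start, against a median of 52.4% over all promoters. The table held a further Errfi1 start on the same strand, whose 250 bases (chr4:150854820-150855069) were 64.8% G and C and held none of the words searched. A match is a description of letters and not a binding site.

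By the distance between log2 signals centred on each gene's mean over the 4 arrays, the genes of most similar pattern to Lrig1 were Fam184b (distance 0.08), Cdc42ep3 (0.08) and Nipal1 (0.09). They changed by -1.54, -1.60 and -1.64, with the lower SmoM2 value in replicate 1 and the lower Sox9cKO value in replicate 2, as for Lrig1.

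Beyond the named family, 103 further genes of the pathway were listed by role, and 95 of them had a value. The lists were chosen with earlier results of these data known, so their shares and medians only describe them. Nothing about the pathway as a whole is read from them. Of the 95 genes 1 rose and 8 fell, or 9.47% called against 6.19% of all genes. All but 2 of the calls came from the genes that the pathway induces. Of 31 measured induced genes 1 rose and 6 fell, with a median log2 change of -0.30 against 0.02 over all genes. This median was -0.19 without SmoM2 replicate 2, -0.11 without Sox9cKO replicate 2 and -0.19 with probe sets averaged per gene. Egr2, a zinc finger transcription factor of the immediate early response, had log2 signals of 10.84 and 10.58 in SmoM2 and 9.24 and 9.20 in Sox9cKO, a fall by 1.49 (SE 0.15, adjusted p = 0.00179). Phlda1, a MAPK-induced gene, fell by 1.39 (SE 0.19, adjusted p = 0.00587), from 10.87 and 11.34 to 9.81 and 9.62. Dusp4, a nuclear phosphatase of MAP kinases, fell by 1.04 (SE 0.14, adjusted p = 0.00548) from signals of 5.48 and 5.54. Plat, tissue plasminogen activator, was the gene that rose, by 1.45 (SE 0.17, adjusted p = 0.00340), from 7.91 and 7.63 to 9.07 and 9.37.

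The remaining calls of that list, named after their values were seen, were Il1rn, Dusp5 and Myc. The interleukin 1 receptor antagonist Il1rn fell by 1.21, the ERK phosphatase Dusp5 by 0.66 and the growth regulator Myc by 0.61. Leaving out any 1 array ended the calls of Myc (adjusted p = 0.126 to 0.188) and Dusp5 (0.0569 to 0.192), and leaving out SmoM2 replicate 1 or 2 ended that of Il1rn (0.0591 and 0.0974). Other genes of the list were called in some of these fits, so the calls were not always of the same genes. Fosl1, named after its values were seen, differed by -0.88 (adjusted p = 0.0660) with all arrays and by -1.22 without SmoM2 replicate 1. With every probe set tested the list held 5 calls. The immediate early genes Fos and Egr1, also named after their values were seen, differed by 0.04 and -0.01 with overlapping arrays.

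**Figure D3:**
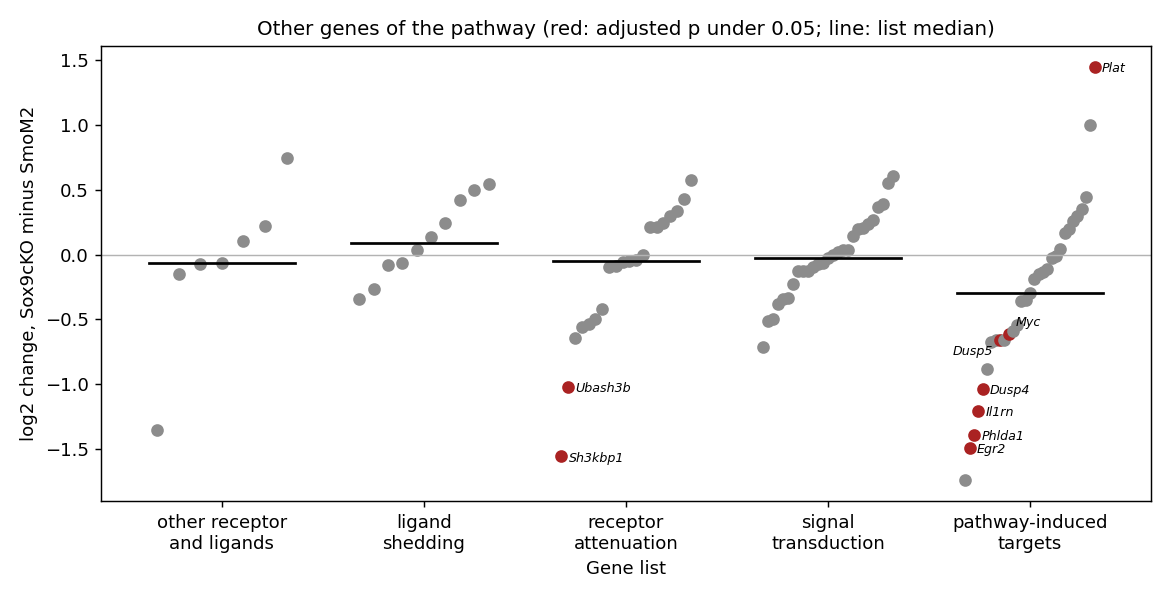
Log2 change (Sox9cKO minus SmoM2) of the 95 other pathway genes measured, by list, with genes at an adjusted p under 0.05 in red and the list median as a line. Calls lie in the receptor attenuation list, with Sh3kbp1 and Ubash3b, and among pathway-induced targets, whose median is -0.30 with all arrays and -0.11 without Sox9cKO replicate 2.

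Of 20 measured genes of receptor attenuation, 2 fell and 0 rose, with a median of -0.05. Sh3kbp1 (CIN85), an adaptor that links Cbl to receptor endocytosis, had log2 signals of 9.48 and 9.49 in SmoM2 and 7.75 and 8.11 in Sox9cKO, and fell by 1.56 (SE 0.16, adjusted p = 0.00223). Ubash3b, a phosphatase that binds Cbl and slows receptor degradation, fell by 1.02 (SE 0.15, adjusted p = 0.00792), but not without SmoM2 replicate 2 (-0.91, adjusted p = 0.0648). Both act on receptor turnover, with opposite reported effects on receptor levels. The ubiquitin ligase Cblb differed by 0.58 (adjusted p = 0.0710) and the receptor phosphatase Ptprk by -0.65 (adjusted p = 0.0781). The Lrig1 relatives Lrig2 and Lrig3, named after their values were seen, differed by -0.05 (adjusted p = 0.917) and 0.43 (adjusted p = 0.207).

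The other receptor and ligands were mostly dim, and limma called 0 of 7 (2 at an unadjusted p under 0.05). Nrg1, neuregulin 1, a ligand of Erbb3 and Erbb4, had log2 signals of 6.04 and 7.76 in SmoM2 and 5.53 and 5.56 in Sox9cKO. SmoM2 replicate 2 stood far above the other arrays, as it did for Tgfa. The difference of Nrg1 was -1.35 (SE 0.47, adjusted p = 0.184), and it was -2.22 (adjusted p = 0.00595) without SmoM2 replicate 1 and -0.49 (adjusted p = 0.247) without SmoM2 replicate 2. Epgn (epigen, a ligand of Egfr) had log2 signals of 8.89 and 9.38 in SmoM2 and 9.94 and 9.82 in Sox9cKO, with arrays not overlapping. Its difference of 0.74 (SE 0.19) missed the threshold, and it passed without SmoM2 replicate 2 (0.99, adjusted p = 0.0499) and with a prior that follows intensity and is robust (adjusted p = 0.0481). Erbb4, the remaining receptor of the family, stood at 3.12 to 3.52 on all arrays, below the lower quartile of all signals. Nrg4 differed by -0.15 (adjusted p = 0.783).

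Limma called 0 of 10 genes of ligand shedding, with 3 at an unadjusted p under 0.05, all higher in Sox9cKO. These were the rhomboid protease Rhbdl2 (0.55, adjusted p = 0.0601) and the metalloproteases Adam10 (0.42, adjusted p = 0.168) and Adam8 (0.50, adjusted p = 0.182). Such unadjusted p-values were common over all genes. Rhbdf1, which helps to bring the sheddase Adam17 to the surface, differed by -0.35 (adjusted p = 0.337). Of 34 listed genes of signal transduction, 27 had a value and limma called 0, with 7 at an unadjusted p under 0.05. Their median was -0.03. The smallest p-values belonged to the Ras GTPase activator Rasa1 (0.61, adjusted p = 0.0593), the kinase Src (-0.52, adjusted p = 0.0716), the PI3K subunit Pik3r1 (-0.50, adjusted p = 0.121) and the adaptor Gab1 (0.55, adjusted p = 0.124). With probe sets ending in _x_at or _s_at left out, the Src difference was -0.10.

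**Figure D4:**
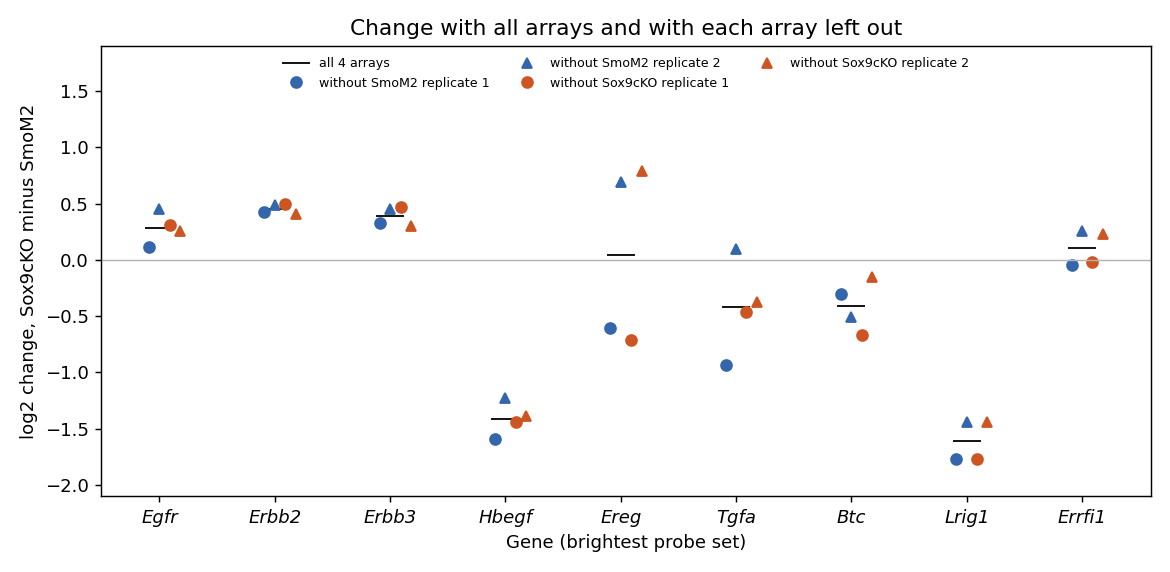
Log2 change (Sox9cKO minus SmoM2) of each measured gene with all 4 arrays (line) and with each array left out in turn (blue, a SmoM2 array; orange, a Sox9cKO array; circle, replicate 1; triangle, replicate 2). Hbegf stays between -1.59 and -1.23 and Lrig1 between -1.77 and -1.44, while Ereg ranges from -0.71 to 0.79.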

How the data were processed

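The authors deposited log2 signals, 1 per probe set and array, for 4 arrays. That they are on a log2 scale was inferred from their range. How they were normalized, background-corrected and summarised is, for these files, not given in the sources used here. The submitters' processing notes name R 2.14.0. Per the labels' protocols, 100 ng of RNA per sample was amplified, and labelled with biotin. The arrays have nearly equal quartiles, so a shift shared by most genes would not be seen. Precision is limited by how few arrays there are.

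Of 45101 probe sets, 34945 had 1 gene symbol in the platform annotation. Control probe sets (64) and those with several symbols (932) or none were left out. The probe set of highest mean over all arrays stood for a gene (18193 genes), and every probe set was also tested. Sox9cKO was compared with SmoM2 in R 4.3.3 with limma 3.58.1 (lmFit, eBayes, two-sided, no covariate, 7.17 degrees of freedom with the prior), adjusted by Benjamini-Hochberg over all features, threshold 0.05. Signals of different probe sets were not ranked as levels. The fit was tested on simulated data for this comparison over 18193 genes and recovered 10% of 50 genes changed 1.5-fold, 68% of 50 changed 2-fold and 98% of 50 changed 4-fold.

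The members and lists were chosen with earlier results of these data known. Named are every member probe set, up to 4 genes of each pathway list by smallest p, Sox9, the 3 genes of most similar pattern to the called member of largest fall (no member rose), and markers. Replicate numbers are not stated to pair the samples. Alternatives were a replicate block, each array left out, the mean of probe sets, dim genes (below the median mean) left out, a trend and robust prior, all probe sets tested, _x_at and _s_at probe sets left out, quantile normalization and 75th percentile scaling.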

Additional observations from a re-analysis of the deposited data

How the results depend on the processing

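Hbegf and Lrig1 were called lower, and no other member was called, in every alternative listed under the processing. The 107 single-gene values of the members kept their direction and side of the threshold in 102 cases. The 5 that changed sign came from arrays left out, for genes never called: Ereg ranged from -0.71 to 0.79 (-0.61 and -0.71 without SmoM2 or Sox9cKO replicate 1), Tgfa from -0.94 to 0.10 (0.10 without SmoM2 replicate 2) and Errfi1 from -0.048 to 0.25 (-0.048 and -0.02 without SmoM2 or Sox9cKO replicate 1). With dim genes left out Btc had no value. The labels do not say that replicate numbers pair the samples. The deviations of same-numbered arrays correlated at r = 0.09 across genes, and the labelling controls and the Actb difference were lower in replicate 2 of both groups. A replicate block raised the count of all genes called from 1126 to 1919, and to 2 for the other receptor and ligands (Epgn at 0.74, adjusted p = 0.0177, and Nrg1 at -1.35, adjusted p = 0.0115), 1 for ligand shedding, 4 for receptor attenuation, 2 for signal transduction and 13 for pathway-induced targets. It left the members' calls as they were. With an array left out, 534 to 900 genes were called (579 and 534 without SmoM2 replicate 1 or 2), 0 to 1 of the other receptor and ligands, 0 to 1 of signal transduction, 1 to 2 of receptor attenuation, 4 to 6 of the induced targets and 3 to 4 member probe sets. The lists with 0 calls gained 1: ligand shedding and signal transduction with probe sets averaged per gene (1 each) and with dim genes left out (1 each), and the other receptor and ligands and signal transduction with an intensity trend and robust prior (1 each). The cause was not tested. Scaling moved the median change of all genes by under 0.1. Signals near the low end of the array, as for Erbb4 and Btc, limit what could be seen.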
